A study of Mus musculus with 8 samples.

Results

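The Hox gene clusters were examined for WFS1 binding in proliferating C2C12 myoblasts. All protein-coding genes with a symbol of Hoxa, Hoxb, Hoxc or Hoxd and a number were taken from the GRCm38 annotation (GENCODE mouse release M21), which gave 39 of 21951 protein-coding genes. They lie in 4 clusters, with 11 genes in Hoxa, 10 in Hoxb, 9 in Hoxc and 9 in Hoxd. WFS1 (wolframin) spans the membrane of the endoplasmic reticulum, and a portion of it sits at the nuclear envelope. Its chromatin contacts were mapped by ChIP-seq, in which DNA bound by an immunoprecipitated protein is sequenced. C2C12 is an established mouse myoblast line. Of 8 libraries, the peak lists of 2 were used, both of wildtype cells crosslinked with DSG and formaldehyde and precipitated with an antibody to WFS1. In one the chromatin had been sheared for 30 sonication cycles, and the other came from a portion of that same immunoprecipitation after 6 more cycles (36 cycles). Each condition had 1 library and neither list was a replicate of the other, so no test between them was possible and every count describes these libraries only. The remaining 6 libraries, namely all inputs and the ChIP from WFS1 knockout cells carrying FLAG Tag WFS1, were left out.

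Hox genes encode homeodomain transcription factors that give cells their position along the body and limb axes. Each cluster holds its genes in the order of their paralogous groups, numbered from 1 at the end that is used early and anteriorly to 13 at the end used late and posteriorly. Polycomb complexes keep unused parts of a cluster silent, whereas cells of the trunk and limbs, myoblasts among them, retain a set of active Hox genes that reflects where they arose.

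Both lists give only where each peak lies, without a height, score or read count, so the depth behind a peak was unknown. Overlapping peaks of the lists (at least 1 bp) were joined into a combined set of 22292 peaks, from 18283 peaks of the 30-cycle list and 12674 of the 36-cycle list. A combined peak is called "of both lists" where each list contributed to it. Ranges given after a share are its 95% Wilson interval, which reflects counting error alone. For a count of 0 the upper limit given is instead the share that 3 counts of the total would make.

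The 31 combined peaks inside the clusters fell into the Hoxa cluster (19 peaks) and the Hoxc cluster (12 peaks), and the Hoxb and Hoxd clusters held 0. The sequences of 9 of them are shown because the positions described below rest on them. They are the widest peaks, the peaks of both lists nearest to start sites, and a GC-rich and an AT-rich example. Each is the forward strand of GRCm38, in the central 200 bp or, for the narrowest, whole, and capitals would mark a match to one of the motifs searched below. None of the 9 stretches holds a match.

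The peak at the 5′ end of Hoxa7 (chr6:52221838-52222274, both lists), central part chr6:52221956-52222155:
Hoxa peak 4: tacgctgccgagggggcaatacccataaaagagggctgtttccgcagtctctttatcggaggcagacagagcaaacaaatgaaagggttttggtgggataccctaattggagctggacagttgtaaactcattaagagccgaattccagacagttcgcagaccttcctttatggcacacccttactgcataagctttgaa
The widest peak among the genes Hoxa7 to Hoxa10 (chr6:52229082-52229795, both lists), central part chr6:52229338-52229537:
Hoxa peak 10: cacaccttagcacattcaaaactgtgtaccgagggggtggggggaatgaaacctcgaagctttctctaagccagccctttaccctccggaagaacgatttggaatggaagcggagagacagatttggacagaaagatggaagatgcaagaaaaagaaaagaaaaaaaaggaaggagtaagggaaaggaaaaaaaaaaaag
The peak of both lists in an intron of Hoxa10 (chr6:52233559-52233934), central part chr6:52233646-52233845:
Hoxa peak 15: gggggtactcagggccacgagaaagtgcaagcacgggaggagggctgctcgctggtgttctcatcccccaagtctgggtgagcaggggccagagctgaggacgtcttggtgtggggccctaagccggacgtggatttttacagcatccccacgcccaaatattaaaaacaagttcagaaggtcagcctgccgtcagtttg
The most GC-rich of the 31 peaks, in a coding exon of Hoxa10 (chr6:52234494-52234688, 36 cycles only):
Hoxa peak 17: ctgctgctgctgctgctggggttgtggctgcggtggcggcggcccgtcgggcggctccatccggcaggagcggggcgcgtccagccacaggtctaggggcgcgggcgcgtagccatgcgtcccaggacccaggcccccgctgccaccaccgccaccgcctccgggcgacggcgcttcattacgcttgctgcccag
The widest peak of the Hoxa cluster, in the antisense RNA gene Hotairm1 (chr6:52160592-52161389, both lists), central part chr6:52160890-52161089:
Hoxa peak 2: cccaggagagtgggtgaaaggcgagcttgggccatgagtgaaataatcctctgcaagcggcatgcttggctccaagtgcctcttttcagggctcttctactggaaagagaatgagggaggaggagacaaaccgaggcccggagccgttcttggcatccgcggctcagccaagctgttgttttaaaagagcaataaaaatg
The peak over Hoxc10 that overlaps the annotated start of Hoxc5 (chr15:102967399-102967903, both lists), central part chr15:102967551-102967750:
Hoxc peak 8: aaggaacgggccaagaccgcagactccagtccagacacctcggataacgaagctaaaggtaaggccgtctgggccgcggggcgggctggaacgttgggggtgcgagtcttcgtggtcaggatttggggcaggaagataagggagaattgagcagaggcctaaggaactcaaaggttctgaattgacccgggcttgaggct
The peak just upstream of Hoxc9 (chr15:102975497-102976196, both lists), central part chr15:102975746-102975945:
Hoxc peak 9: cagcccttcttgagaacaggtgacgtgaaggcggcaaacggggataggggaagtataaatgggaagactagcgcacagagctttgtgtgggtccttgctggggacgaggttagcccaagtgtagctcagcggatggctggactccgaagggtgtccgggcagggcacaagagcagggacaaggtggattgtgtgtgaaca
The widest of the 31 peaks, in an intron of Hoxc6 (chr15:102999482-103000394, both lists), central part chr15:102999838-103000037:
Hoxc peak 11: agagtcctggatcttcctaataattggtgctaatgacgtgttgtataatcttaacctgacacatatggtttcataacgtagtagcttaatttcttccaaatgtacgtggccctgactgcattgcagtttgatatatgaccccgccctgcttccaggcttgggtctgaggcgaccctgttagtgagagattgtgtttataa
An AT-rich peak between Hoxc11 and Hoxc10 (chr15:102962875-102963374, both lists), central part chr15:102963024-102963223:
Hoxc peak 6: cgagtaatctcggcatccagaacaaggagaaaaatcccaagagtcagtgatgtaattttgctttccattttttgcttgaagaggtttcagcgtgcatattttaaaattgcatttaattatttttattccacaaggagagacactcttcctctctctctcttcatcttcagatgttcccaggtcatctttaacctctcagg

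Hoxa peak 17 was 75.4% GC with 23 CpG, and the stretch of Hoxc peak 6 was 38.5% GC with 3 CpG. The stretch at Hoxa7 (47.5% GC) and the one at Hoxc9 (57.0% GC) lay between them.

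To see whether Hox genes carry WFS1 at their 5′ ends, peaks were sought within 1 kb of each gene's start site, the 5′ end of its GENCODE model. Such a peak was found at 8 of 39 Hox genes (20.5%, 10.8 to 35.5), against 13.2% of all protein-coding genes. Hox start sites are often CpG-rich, defined here as at least 50% GC and an observed over expected CpG of at least 0.6 in the 1 kb around the start, and this held for 24 of the 39. Among all genes, 22.6% of CpG-rich start sites and 5.68% of the others had a peak. Of the 24 CpG-rich Hox start sites 5 had a peak (20.8%, 9.24 to 40.5), and of the other 15 the number was 3 (interval 7.05 to 45.2%). The Hox share as a whole was within counting error of the background, but its peaks were unevenly spread over the clusters.

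The 8 genes included Hoxa3, Hoxa7, Hoxa9 and Hoxa11 of the Hoxa cluster and Hoxc5, Hoxc9 and Hoxc10 of the Hoxc cluster. In the Hoxa cluster 5 of 11 start sites had a peak (45.5%, 21.3 to 72.0) and in the Hoxc cluster 3 of 9 (33.3%, 12.1 to 64.6). The 10 Hoxb genes had 0, which allows a share of up to 30.0%, and the 9 Hoxd genes had 0, which allows up to 33.3%. CpG-rich start sites numbered 9 of 11 in Hoxa, 3 of 10 in Hoxb, 5 of 9 in Hoxc and 7 of 9 in Hoxd, and the part of CpG content in the spread of peaks was not tested.

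Gene bodies gave a similar picture. A peak overlapped 10 of 39 Hox genes (25.6%, 14.6 to 41.1), against 24.6% of all protein-coding genes and 9.69% of the 7062 protein-coding genes of 1 to 10 kb, a length class that holds most Hox genes. The 10 were Hoxa3, Hoxa7, Hoxa9, Hoxa10, Hoxa11, Hoxc5, Hoxc6, Hoxc9, Hoxc10 and Hoxc11. Of these, Hoxa3 (44275 bp), Hoxc5 (49987 bp) and Hoxc6 (13625 bp) are longer than 10 kb. Also longer than 10 kb, but without a peak, are Hoxb3 (24605 bp), Hoxc4 (17919 bp), Hoxd3 (36516 bp) and Hoxd4 (17232 bp). The 25.6% and the 9.69% are therefore not shares of genes of like length. With start sites and bodies counted together, 11 Hox genes had a peak and 28 had none. Those without one were 5 of the Hoxa genes (among them Hoxa4, Hoxa5 and Hoxa13), 4 of the Hoxc genes (Hoxc4, Hoxc8, Hoxc12 and Hoxc13) and every Hoxb and Hoxd gene.

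**Figure D1:**
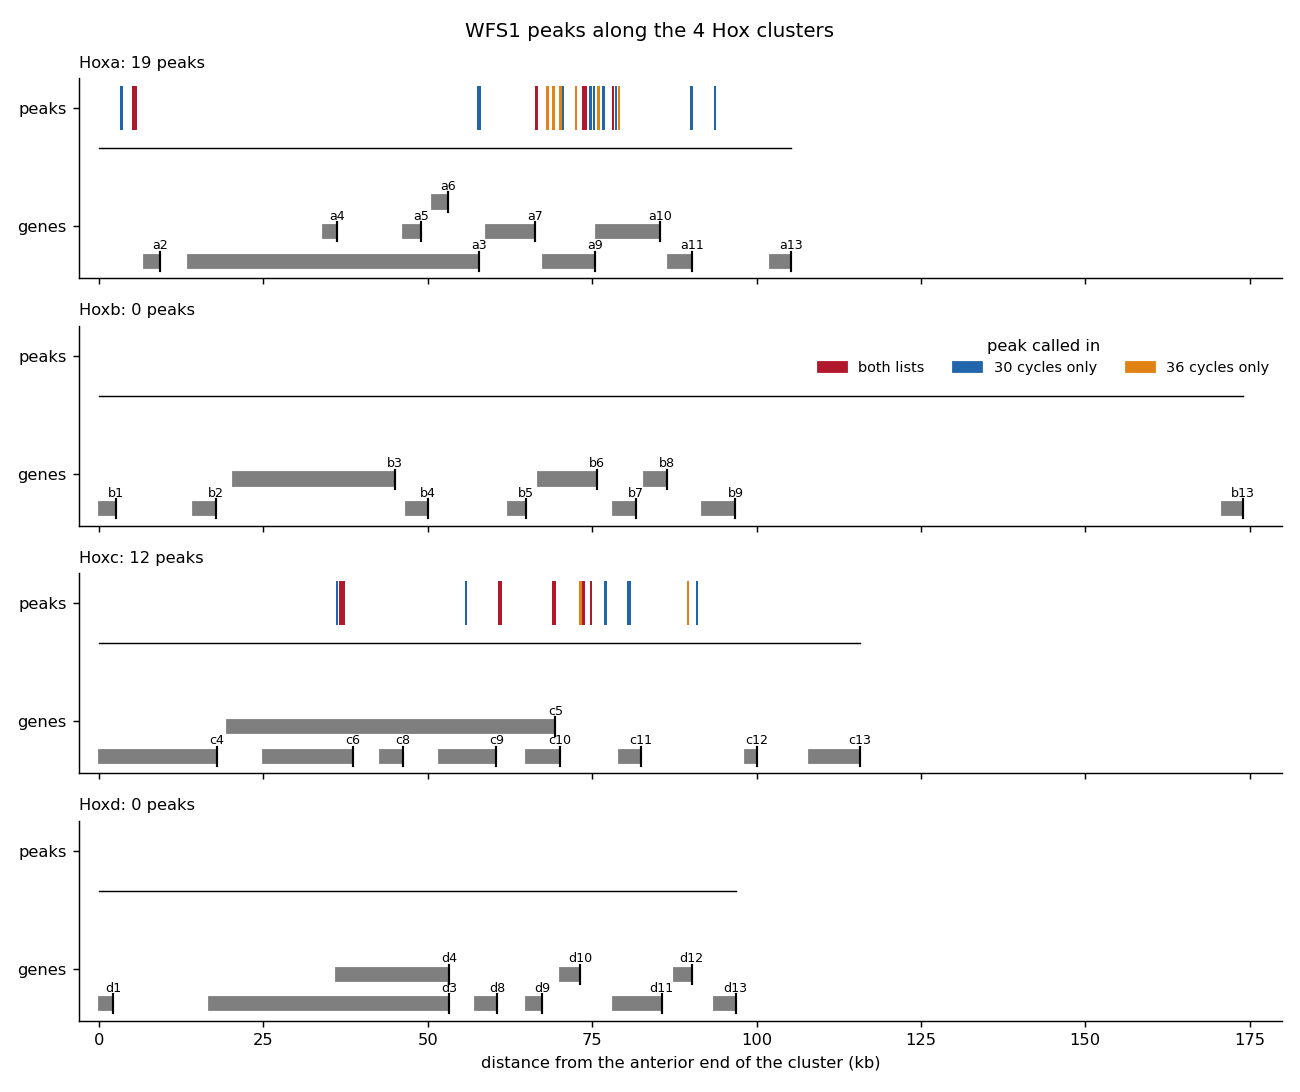
Map of the 4 Hox clusters, with distance in kb from the anterior end of each cluster on the horizontal axis, gene models as grey bars with the start site as a black line, and combined peaks above them coloured by the list that called them (1 gene is not drawn). The Hoxa cluster holds 19 peaks, of which 14 lie between Hoxa7 and Hoxa10, the Hoxc cluster holds 12, and the Hoxb and Hoxd clusters hold 0 (very narrow peaks are widened to 0.35 kb to be visible).

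The Hoxa cluster (chr6:52155590-52260880, 105 kb) held 180 peaks per Mb, against 7.95 per Mb on chromosome 6 as a whole and 8.94 per Mb on the autosomes. Its 19 peaks covered 7255 bp, or 6.89% of the cluster. Among 272339 windows of the same length laid across the genome every 10 kb, 0.0132% had at least 19 peaks and 64.8% had none. Among the 118 windows with at least as many protein-coding start sites as the cluster (13), the median was 1 peak and 0.0% reached 19. Windows laid every 10 kb overlap each other and are not independent. None of them coincides with the cluster itself, so the 0.0% depends on where the windows were laid. All 19 peaks lay within 5 kb of a Hoxa start site and 7 within 1 kb. The 11 start sites are so closely spaced that most of the cluster lies within 5 kb of one. The 5 kb count therefore does not tie the peaks to start sites.

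Most of them formed a single run along Hoxa7, Hoxa9 and Hoxa10, genes used at thoracic to lumbar levels of the body axis. From chr6:52221838 to 52234688, 14 peaks followed each other within 12.9 kb, with gaps of 151 to 1571 bp, and they made up 73.7% of the Hoxa peaks. The peaks were 195 to 714 bp wide and covered 38.9% of the run. When peaks at most 2 kb apart were chained across the genome, this run shared the second rank by number of peaks among 17935 runs, behind a run of 18 peaks on chromosome 19 and level with another of 14 there. The ranking depended on the distance that ends a run, a choice made after the data were seen. With 1 kb the longest Hoxa run held 6 peaks in 4.58 kb, and 9 runs had more, whereas with 3 kb it again held 14 and 3 runs had more.

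The 30-cycle list called 8 of the 14 peaks and the 36-cycle list 9, and 3 were of both lists, set beside 35.4% of all combined peaks and 23.3% of those within 1 kb of a protein-coding start site, whereas 5 came from the 30-cycle list alone and 6 from the 36-cycle list alone. The lists thus marked the same 12.9 kb with peaks at mostly different positions. Outside the run the 30-cycle list called all 5 remaining Hoxa peaks and the 36-cycle list 1 of them.

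Hoxa9, a gene known for its role in blood stem cells and leukaemia, had the most peaks. The body of its GENCODE model (chr6:52223100-52231089, reverse strand) overlapped 8 combined peaks, with 4 peaks of the 30-cycle list and 5 of the 36-cycle list. Within 5 kb of its start site lay 10 peaks, the highest number of any of the 21951 protein-coding genes. Near the annotated start the closest peak was 0.058 kb away (chr6:52230700-52231031, 30 cycles only), and a 580 bp peak called after 36 cycles only lay 0.16 kb away on the other side. The lists were therefore closest to this start site with different peaks.

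The Hoxa9 model is long because it includes transcripts that begin upstream. RefSeq places the start of Hoxa9 further inside, and a peak lay within 1 kb of that start as well. Of the 8 peaks in the body, Hoxa peak 6 and Hoxa peak 9 lay in introns and Hoxa peak 7 and Hoxa peak 8 over coding exons, and of these only Hoxa peak 8 was called after 30 cycles.

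Hoxa10, a gene of lumbar patterning and uterine development, had 5 peaks in its body (chr6:52231197-52240854), 3 from each list with 1 shared. It had none within 1 kb of its annotated start site, the closest being 4.64 kb upstream. A shorter Hoxa10 transcript starts nearer to the run, and by the start of any annotated transcript Hoxa10 did have a peak within 1 kb. Of its 5 peaks 3 touched coding exons, 1 lay in an intron and 1 in a noncoding exon.

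Hoxa7 was overlapped at its annotated 5′ end by Hoxa peak 4 of both lists, whose sequence is shown above, and had 5 peaks within 5 kb, a number reached by 0.191% of all protein-coding genes. Within Hoxa peak 4, only the 30-cycle peak reached this 5′ end, and the 36-cycle peak lay 0.221 kb from it. This 5′ end belongs to the longest transcript, and the RefSeq start of Hoxa7 had no peak within 1 kb. The neighbouring Hoxa6 and Hoxa5, by contrast, had their nearest peak 4.42 and 8.55 kb away. The same 529 bp peak at the Hoxa3 start (chr6:52213139-52213667, 30 cycles only) was the nearest to both.

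At the late, posterior end the peaks thinned out. Hoxa11, which patterns the forearm and shank and is expressed in limb muscle precursors, had 1 peak over its start site (chr6:52245498-52245883, 30 cycles only), which reached into a coding exon. Another peak lay 3322 bp upstream in the antisense gene Hoxa11os (chr6:52249132-52249434, 30 cycles only). Hoxa13, needed for the hand and foot, had its nearest peak 11.4 kb away, and the 36-cycle list had none within 26.2 kb of it.

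At the early, anterior end, Hoxa2 had no peak within 1 kb, its nearest being the 798 bp peak of both lists at 3.44 kb, shown above as Hoxa peak 2. This peak lay in Hotairm1, a noncoding RNA gene transcribed on the opposite strand. Hoxa3, a gene of thymus and parathyroid development, had 1 peak at the 5′ end of its 44275 bp model, and Hoxa4, inside that model's span, had its nearest peak 21.4 kb away.

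The Hoxc cluster (chr15:102921103-103036852, 116 kb) held 104 peaks per Mb, and its 12 peaks covered 5262 bp, or 4.55%. At least 12 peaks were found in 0.277% of windows of this length genome-wide and in 1.15% of those on chromosome 15. Among 1281 windows with at least 9 protein-coding start sites, the share was 2.11%. Chromosome 15 had 14.5 peaks per Mb and the 500 kb on either side of the cluster 37 per Mb, both above the autosomes at 8.94 per Mb, and their part in the count was not tested.

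Of the Hoxc peaks 5 of 12 were of both lists (41.7%, 19.3 to 68.0), close to the 42.4% of all peaks on chromosome 15. Of the Hoxa peaks 4 of 19 were (21.1%, 8.51 to 43.3), against 35.9% of all peaks on chromosome 6, which lies inside that interval. The Hoxc peaks were more spread out. The densest stretch, 4 peaks in 4.11 kb (chr15:102959772-102963879), lay between Hoxc11 and Hoxc10 and outside any annotated gene. It included Hoxc peak 5 and Hoxc peak 6, both of both lists, and 241 runs in the genome had as many peaks or more.

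Hoxc10, which patterns the lumbar spinal cord and hindlimb, had 4 peaks within 5 kb of its start site, a number reached by 0.661% of all protein-coding genes. The closest, Hoxc peak 8, lay 0.603 kb downstream over a coding exon and was called in both lists. The same peak overlapped the annotated start of Hoxc5, but the GENCODE model of Hoxc5 begins in a long transcript that spans Hoxc9, Hoxc8 and Hoxc6. The 5 peaks in that model are shared with these neighbours or lie between them. RefSeq gives Hoxc5 at chr15:103014008-103017429, and no peak lay in that body or within 1 kb of its start.

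Hoxc9, which specifies thoracic motor neurons, had a 700 bp peak of both lists 0.243 kb upstream of its start site, shown above as Hoxc peak 9, and a 379 bp peak in its body that was called after 30 cycles only. Hoxc6, a gene of the forelimb level, held the widest peak of the clusters. This 913 bp peak lay 1.23 kb downstream of its annotated start in an intron, was called in both lists, and was followed by a 306 bp peak called after 30 cycles only. Hoxc11 had 1 peak of 504 bp in its body at 1.58 kb from the start (30 cycles only), over a coding exon.

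The remaining Hoxc genes were farther from any peak. The distances were 8.88 kb for Hoxc8, 8.99 kb for Hoxc12, 18.1 kb for Hoxc4 and 24.6 kb for Hoxc13. Hoxc13 was thus the farthest Hoxc gene from a peak, as Hoxa4 at 21.4 kb was among the Hoxa genes.

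No peak of either list lay in the Hoxb cluster (chr11:96194316-96368256, 174 kb), and a limit of 3 peaks corresponds to 17.2 peaks per Mb. The stretch without a peak reached 259 kb, from 45.3 kb beyond Hoxb13 to 39.4 kb beyond Hoxb1. At its Hoxb1 end stood a 1304 bp peak of both lists (chr11:96407684-96408987), the widest of the flank peaks. Windows of this length without a peak were common, with 54.7% genome-wide and 37.2% on chromosome 11, and 21.7% of 3497 windows with at least 10 protein-coding start sites had none. The absence of peaks from Hoxb was thus not rare for a stretch of this size.

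The Hoxd cluster (chr2:74668310-74765142, 96.8 kb) was also without a peak, the limit of 3 peaks being 31.0 per Mb. The stretch without a peak was longer here, 374 kb, from 252 kb beyond Hoxd13 to 25.5 kb beyond Hoxd1, and both bordering peaks came from the 30-cycle list alone. After 36 cycles the nearest peak was 847 to 942 kb from the Hoxd genes. Among windows of the same length 66.4% had no peak, as had 62.0% on chromosome 2 and 27.1% of 384 windows with at least 10 start sites.

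Distances to the nearest peak put the clusters side by side. The median was 3.44 kb in Hoxa (range 0.0 to 21.4) and 1.58 kb in Hoxc (0.0 to 24.6), against 96.9 kb in Hoxb (41.9 to 126) and 92.9 kb in Hoxd (27.6 to 122). The Hoxb and Hoxd clusters held 0 peaks, so each of their genes was at least as far from a peak as the cluster edge. The larger distances there restate the peak counts and are not further evidence. Genes of a cluster also share their peaks and are not independent. Over all protein-coding genes the median was 41.7 kb, and over those with a CpG-rich start site 25.6 kb. A peak lay within 5 kb of 13 Hox genes, 8 of Hoxa and 5 of Hoxc, against 19.3% of all protein-coding genes.

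**Figure D2:**
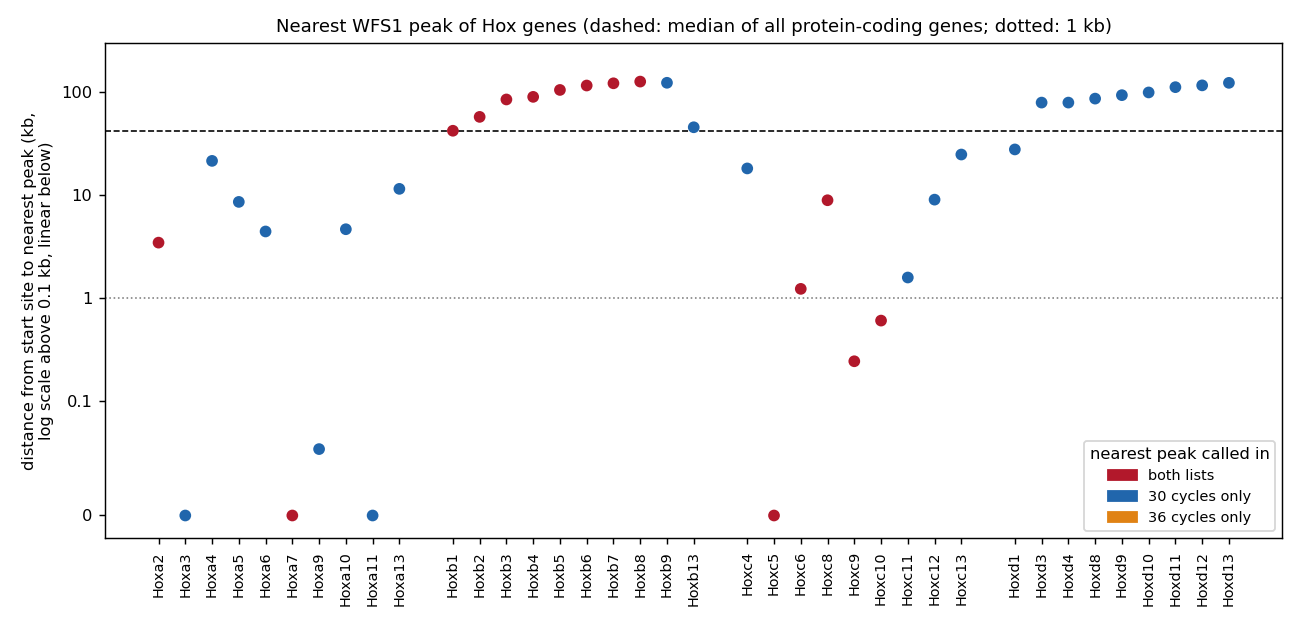
Distance in kb from Hox start sites to the nearest combined peak, for all but 1 of the 39 genes (vertical axis, logarithmic above 0.1 kb and linear below), ordered by cluster and paralogous group, with points coloured by the list that called that peak. All Hoxa and Hoxc genes shown lie at or below 24.6 kb, and all Hoxb and Hoxd genes except Hoxd1 (27.6 kb) lie above the median of all protein-coding genes at 41.7 kb.

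Genes of the same paralogous group, which descend from 1 ancestral gene, were set beside each other to follow position along the clusters. Of groups 9 to 13, 4 of 16 genes had a peak at the start site and 6 of 16 in the body, all in Hoxa or Hoxc. Of groups 5 to 8 the numbers were 2 and 3 of 11, and of groups 1 to 4 they were 2 and 1 of 12. These are small numbers beside 13.2% and 24.6% of all protein-coding genes, and no order along the clusters is read from them. In group 9, Hoxa9 and Hoxc9 had a peak at the start site, whereas the nearest peak was 122 kb from Hoxb9 and 92.9 kb from Hoxd9. In group 10, Hoxc10 and Hoxa10 had peaks in their bodies and Hoxd10 was 98.7 kb from one. In group 11, the distances were 0 for Hoxa11, 1.58 kb for Hoxc11 and 111 kb for Hoxd11. In group 13, none of the 4 genes had a peak nearer than 11.4 kb.

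The sequence around the clusters was counted in 500 kb on either side, which held 66 combined peaks or 16.5 per Mb. The clusters together held 63.0 per Mb and the genome 8.18 per Mb. Around Hoxa the density fell from 180 per Mb inside to 12 per Mb in the flanks, with 9 peaks beyond the anterior end and 3 beyond Hoxa13, the nearest 75.7 and 108 kb away. Around Hoxc it fell from 104 to 37 per Mb, with 17 peaks beyond Hoxc13 and 20 beyond Hoxc4, the nearest 81.1 and 133 kb away. Around Hoxb, 10 peaks lay beyond Hoxb13 and 5 beyond Hoxb1, with 0 inside. The Hoxd flanks held 1 peak each.

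Flanking protein-coding genes had a peak at the start site in 13 of 48 cases (27.1%, 16.6 to 41.0), against 13.2% of all protein-coding genes and 22.6% of those with a CpG-rich start site. Beside Hoxb these were Zfp652, Phospho1, Snf8, Cbx1 and Nfe2l1, and beside Hoxc they were Map3k12, Atp5g2, Calcoco1, Cbx5, Hnrnpa1, Copz1 and Itga5. Cbx5 and Hnrnpa1 were counted for the same peaks, so the 13 genes are not all independent, as the interval assumes. Cbx1 and Cbx5 encode HP1 proteins of heterochromatin, and Itga5 encodes a fibronectin receptor subunit. Beside Hoxa there was Tax1bp1, and beside Hoxd none of the 3 genes. Around Hoxb these were 3 of 13 genes beyond Hoxb13 and 2 of 5 beyond Hoxb1, at 159 kb (Snf8) to 482 kb (Zfp652) from the cluster.

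**Figure D3:**
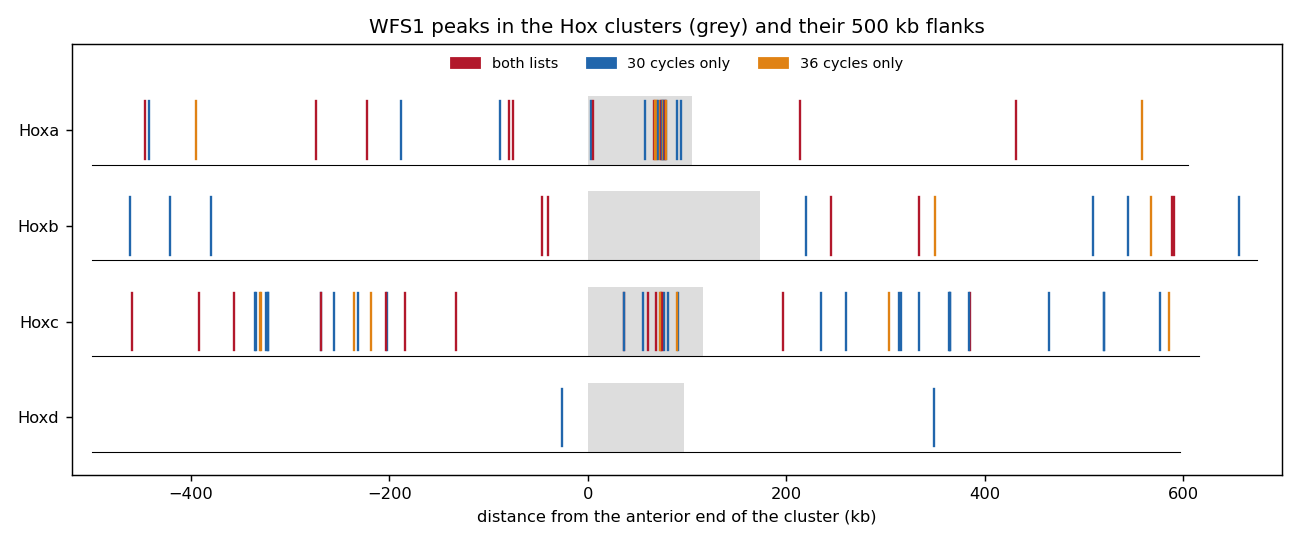
Combined peaks (coloured lines, by the list that called them) in the Hox clusters (grey) and 500 kb on either side, with distance in kb from the anterior end of each cluster. Peaks crowd inside the Hoxa cluster (19) and the Hoxc cluster (12), while the Hoxb and Hoxd clusters are empty and the flanks hold 12, 15, 37 and 2 peaks for Hoxa, Hoxb, Hoxc and Hoxd.

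The clusters also hold microRNAs and long noncoding RNAs, some of which act on Hox transcripts. Of 32 other genes in or within 10 kb of the clusters, 3 had a peak within 1 kb of their start, against 13.2% of all protein-coding genes. Most of the 32 are noncoding, and a share over all noncoding genes is not given. The 3 were Mir196b, Hotair and the readthrough gene Gm28308, which shares its 5′ end and its peak with Hoxa3. Hotair, a noncoding RNA gene of the Hoxc cluster studied for its contacts with Polycomb proteins, held 2 narrow peaks, 1 of 295 bp (30 cycles only) and 1 of 195 bp (36 cycles only) at 0.323 kb from its start. Hoxa11os held 2 peaks. Hottip, a noncoding RNA gene beyond Hoxa13, had its nearest peak 13.3 kb away.

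The microRNAs of the miR-196 and miR-10 families are printed from RefSeq (GRCm38.p6), 5′ to 3′, to show which clusters carry the same seed, the bases 2 to 8 that pair with targets, given in capitals.
miR-196b-5p (Hoxa): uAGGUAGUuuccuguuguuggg
miR-196a-5p (Hoxb and Hoxc): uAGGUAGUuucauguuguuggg
miR-10a-5p (Hoxb): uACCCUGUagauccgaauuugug
miR-10b-5p (Hoxd): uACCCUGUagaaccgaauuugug

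The miR-196 microRNAs share the seed AGGUAGU, and their genes lie next to the group 9 genes. The mature miR-196b-5p was 0.01 kb from a peak called after 30 cycles only (chr6:52230160-52230482), within the Hoxa7 to Hoxa10 run. The same mature miR-196a-5p is encoded by Mir196a-2 in Hoxc, 2.11 kb from Hoxc peak 9 of both lists, and by Mir196a-1 in Hoxb, 116 kb from any peak. The miR-10 microRNAs share the seed ACCCUGU, and both were far from peaks, 90.5 kb for miR-10a-5p and 64.5 kb for miR-10b-5p. Each of these microRNA genes lies inside its cluster, so its distance to a peak largely restates whether that cluster held peaks. Mir615 in Hoxc was 14.1 kb from a peak, measured from its mature products.

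Inside the Hoxa cluster, 16 of 19 peaks overlapped a Hox gene body, 6 of them a coding exon, 7 a noncoding exon without a coding one, and 3 an intron only. The other 3 lay in Hotairm1 or Hoxa11os. In the Hoxc cluster 6 of 12 overlapped a Hox gene body, 2 lay in Hotair and 4 in no annotated gene. RefSeq promoters (from 250 bases before to 50 bases after a start) were given for 22 of the 39 genes, as 24 promoters, and 2 of them, of Hoxa3 and Hoxa11, overlapped a peak (8.33%), against 5.4% of 32851 promoters of all genes.

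Cluster peaks were of usual width, with a median of 376 bp (range 195 to 913) against 376 bp for all combined peaks. In base composition they were closer to peaks at start sites. Their median GC was 54.0% and their median observed over expected CpG was 0.538, against 47.1% and 0.222 for all peaks, 49.3% and 0.231 for the flank peaks, and 57.9% and 0.669 for the 3085 peaks within 1 kb of a protein-coding start site. The observed over expected CpG exceeded the genome-wide median in 29 of 31 cluster peaks and in 35 of 66 flank peaks. The exceptions were Hoxa peak 5 (0.175) and Hoxa peak 13 (0.194), both AT-rich, in noncoding exons of Hoxa9 and Hoxa10, and called after 36 cycles only.

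**Figure D4:**
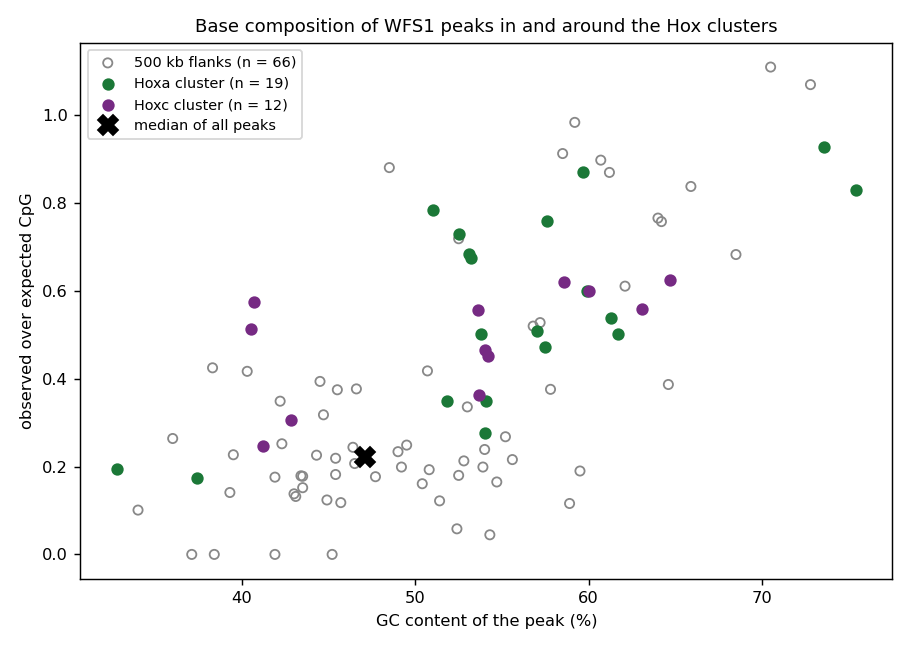
GC content in percent (horizontal axis) and observed over expected CpG (vertical axis) of each combined peak in the Hoxa cluster, the Hoxc cluster and the 500 kb flanks, with a cross at the median of all peaks (47.1% and 0.222). Of the cluster peaks, 29 of 31 lie above the cross on the vertical axis, whereas the flank peaks scatter around it with 35 of 66 above.

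Of the 31 cluster peaks 9 were of both lists (29.0%, 16.1 to 46.6), and after joining peaks up to 500 bp apart 10 of 22 were (45.5%). Of the 31, 14 came from the 30-cycle list alone and 8 from the 36-cycle list alone (25.8%, 13.7 to 43.2). For all combined peaks the shares were 35.4% of both lists and 19.1% after 36 cycles only, inside these intervals. Cluster peaks of both lists had a median width of 505 bp, against 327.5 bp after 30 cycles only and 229.5 bp after 36 cycles only. By list alone, a start site peak was present at 8 Hox genes with 30 cycles (10.9% of all genes) and at 5 with 36 cycles (6.02% of all genes), namely Hoxa7, Hoxa9, Hoxc5, Hoxc9 and Hoxc10. Hoxa3 and Hoxa11 were among those that rested on the 30-cycle list. A start site peak of both lists was present at 4 Hox genes, namely Hoxa7, Hoxc5, Hoxc9 and Hoxc10, against 3.33% of all genes. Hoxc5 and Hoxc10 were counted for the same peak. By RefSeq, Hoxa7 and Hoxc5 had no peak within 1 kb of the start, so these 4 genes are not independent cases.

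Short DNA motifs were then counted in the central 200 bp of each peak on both strands. They were TGACTCA (AP-1), CAGCTG (an E-box), TGTGGT (RUNX), TGATTNAT (PBX with HOX), TGACAG (MEIS) and the longer CTCF core motif. None of these words contains another, and each was counted separately, so a peak could count for several. Of 13237130 windows of 200 bp across the genome, TGACTCA was in 3.10%, CAGCTG in 7.14%, TGTGGT in 13.7%, TGATTNAT in 3.7%, TGACAG in 12.5% and the CTCF motif in 1.01%. A match describes the letters and does not show that a factor was bound.

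Motifs frequent in WFS1 peaks elsewhere were scarce in the clusters. TGACTCA was found in 1 of 31 cluster peaks (3.23%, 0.572 to 16.2), against 17.9% of all combined peaks, 13 of 66 flank peaks (19.7%, 11.9 to 30.8) and 4.73% of peaks within 1 kb of a start site. CAGCTG was in 1 of 31 cluster peaks, against 17.9% of all peaks, 15.2% of flank peaks and 11.2% at start sites. TGTGGT was in 2 of 31 (6.45%), against 24.7%, 25.8% and 11.4%. The cluster shares were thus nearer to those of peaks at start sites than to those of the flanks. With 31 peaks, however, the cluster and flank intervals overlap for each of these motifs. They were 0.572 to 16.2% and 8.44 to 25.7% for CAGCTG, and 1.79 to 20.7% and 16.7 to 37.4% for TGTGGT.

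The words tied to HOX proteins and their partners were not more frequent. TGATTNAT and TGACAG were in 0 of 31 cluster peaks, which allows a share of up to 9.68% each, against 4.96% and 14.3% of all peaks. The CTCF motif was in 0 of 31 cluster peaks and in 0 of 66 flank peaks (up to 4.55%), against 1.6% of all peaks. Because cluster peaks are GC-rich, peaks with 50 to 60% GC were also compared, a choice made after the data were seen. Among these, TGACTCA was in 0 of 19 cluster peaks (up to 15.8%) and in 17.6% of 5871 peaks genome-wide. CAGCTG and TGTGGT were each in 1 of 19 cluster peaks (5.26%, 0.935 to 24.6), against 24.1% and 22.9%, both inside that interval.

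The single TGACTCA of the clusters stood in the AT-rich Hoxa peak 5, within 30 bases that also hold a TGTGGT match. These are shown on the forward strand (chr6:52223754-52223783), where the matches, in capitals, read as the reverse complements TGAGTCA and ACCACA. The CAGCTG of the clusters was at the start of Hoxa11 (chr6:52245769-52245798, forward strand), and the second TGTGGT match was over a coding exon of Hoxa9 (chr6:52225625-52225654, forward strand).
Hoxa peak 5: gttTGAGTCAcaaaacataattACCACAat
Hoxa peak 18: ctgCAGCTGcctctttgaagcggatccgtg
Hoxa peak 7: agaACCACAagcatagtcagtcagggacaa

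**Figure D5:**
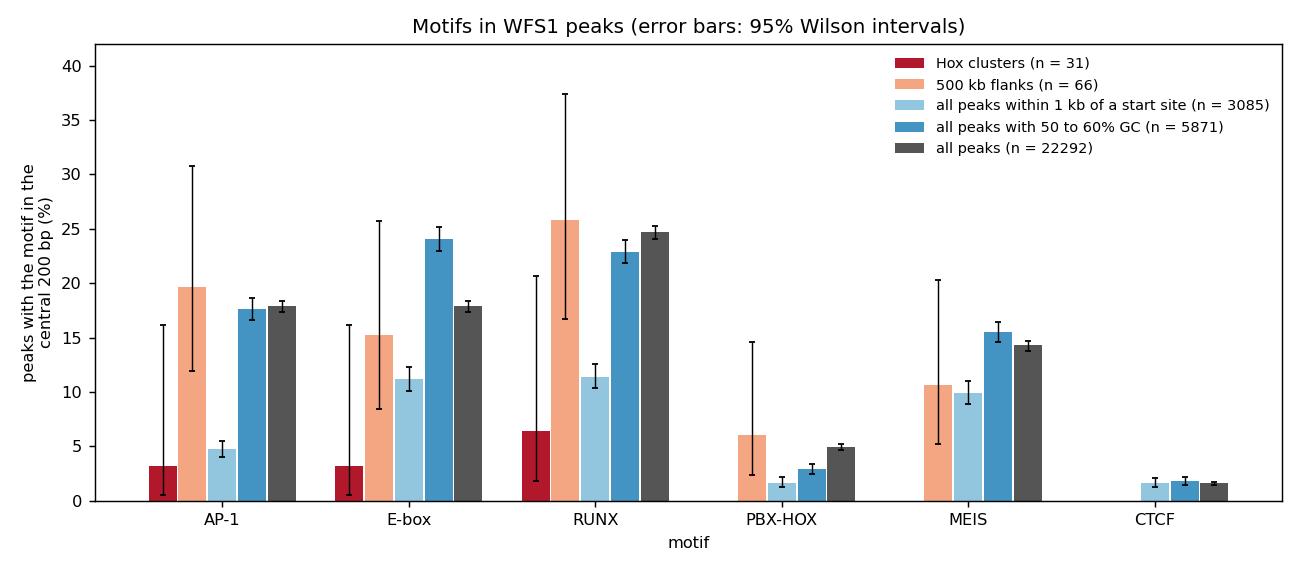
Share of peaks in percent (vertical axis) with each of 6 motifs in the central 200 bp, for the 31 Hox cluster peaks, the 66 flank peaks and sets of all peaks, with 95% Wilson intervals as error bars where the share is above 0. The AP-1 motif is at 3.23% in the clusters against 19.7% in the flanks, and the PBX-HOX, MEIS and CTCF motifs are at 0 in the clusters.

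Genes that act with or upon Hox genes were counted in the same way, with 13.2% and 24.6% of all protein-coding genes as the background for start sites and bodies. Neither background is matched for CpG content or gene length. Among all genes with a CpG-rich start site, 22.6% had a peak there. Of 9 HOX cofactor genes of the TALE class, 3 had a peak at the start site and 7 in the body. A CpG-rich start site was present in 5 of the 9. Meis1 had 2 peaks at its start site, the nearest of 830 bp overlapping it in both lists, and 12 in its body. Meis2 had 3 peaks at its start site and Pknox2 had 1. Homeobox genes related to Hox, the ParaHox, Cdx and Evx genes, had 0 of 8 at either place, with 6 of the 8 start sites CpG-rich. These include Evx1 beyond Hoxa13, with a peak at 55.2 kb, and Evx2 beside Hoxd13, at 131 kb.

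Of 23 genes for chromatin regulators of Hox genes, 5 had a peak at the start site (21.7%) and 12 in the body (52.2%). Of the 23, 18 had a CpG-rich start site, a class in which 22.6% of all protein-coding genes had a peak. The body share was not matched for gene length. At the start site these were Ezh2, the methyltransferase of Polycomb complex PRC2, Cbx8, Pcgf2 and Ring1 of complex PRC1, and Kdm6a, a demethylase that removes the PRC2 mark. Kmt2a, which maintains active Hox genes, had 1 peak in its body and none near its start. For Ezh2, Pcgf2 and Ring1 the peak overlapped the start site and came from the 30-cycle list alone, and for Kdm6a it was of both lists.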

How the data were processed

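WFS1 ChIP-seq peak lists of 2 wildtype C2C12 libraries (30 and 36 sonication cycles) were used. Per the paper's methods, the authors aligned with NextGenMap against GRCm38, filtered on mapping quality (SAMtools) and ran MACS2 on each library without pooling. The control used in peak calling is not given in the sources used here. The deposited lists hold peak positions (other units such as signal, score or read count are absent), so depth is unknown and intervals cover counting error only.

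Peaks were joined as bedtools merge does (bedtools 2.31.1) and assigned to GENCODE M21 and RefSeq genes with numpy 2.4.6, pandas 2.3.3 and scipy 1.17.1 in Python 3.11.15. The overlap, distance and motif counts were tested on simulated data. All 39 Hox genes were counted, chosen by symbol, and results that single out some genes are not reported here. Cofactor, related homeobox and chromatin regulator lists, the motifs and all members were chosen with earlier results of these data known. Names of flanking genes and of other genes in the clusters follow the peaks at their start sites. Without replicates no test was made. Alternatives were each list alone, peaks of both lists, other distances, flanks and gene models, and joined peaks.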

Additional observations from a re-analysis of the deposited data

How the results depend on the processing

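With the 36-cycle list alone, 5 Hox genes had a peak at the start site (6.02% of all genes) and 5 in the body (15.0%). The clusters then held 17 peaks and the flanks 33. With peaks of both lists only, 4 Hox genes had one at the start site (3.33% of all genes) and 6 in the body. For that body count a share over all genes is not given. The clusters then held 9 peaks and the flanks 22. A distance of 5 kb in place of 1 kb gave 13 Hox genes (19.3% of all genes). Flanks of 250 kb and 1 Mb held 30 and 151 peaks. The Hoxb and Hoxd clusters held 0 peaks in each list, in peaks of both lists, with peaks up to 500 bp apart joined and with 5 kb added on either side. In the Hoxa cluster, joined peaks numbered 12 and peaks of both lists 4. RefSeq models, chosen after the data were seen, gave 6 Hox genes at start sites (12.8% of all genes) and 8 in bodies (24.5%). The share of cluster peaks of both lists was 29.0%, 45.5% with peaks up to 500 bp apart joined and 22.6% where each peak had to share at least 50%. The share of cluster and flank peaks with TGACTCA was 14.4% and ranged from 9.28% in the central 100 bp to 20.6% in the whole peak. No paired analysis was possible because there was only 1 library of each shearing time, and no replicate could be left out. Depth is unknown, so a lack of peaks means that none was called, not that WFS1 was absent.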
